A study of Mus musculus with 4 samples.

Results

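The sarcomeric myosins examined here are the 10 genes Myh1, Myh2, Myh3, Myh4, Myh7, Myh8, Myl1, Myl4, Mylpf and Myl6b, taken by symbol from a table of 19353 genes: 6 heavy chains and 4 light chains. They were measured in muscle satellite cells (MuSCs), the stem cells of skeletal muscle, from the plantaris of Pax7-CreERT2:Rosa-YFP mice. In these mice tamoxifen turns on a yellow fluorescent protein (YFP) permanently in cells that express Pax7, so the sort on YFP also takes in descendants of such cells that no longer express Pax7. The overloaded group came from the plantaris 4 days after the Achilles tendon was cut, which shifts load onto this muscle, and the sham group from sham-operated plantaris. All samples shared the genotype and tamoxifen. The age of the mice was not given in the sources used here. Each group had 2 libraries, each from a tube of 100 sorted cells, and nothing in the labels says whether they came from separate mice, so p-values measure only the spread between these libraries.

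Messenger RNA was counted by CEL-Seq2, which tags the 3′ end of each captured molecule with a unique molecular identifier (UMI). One UMI stands for 1 molecule whatever the length of the transcript, so levels of different genes can be set side by side. The libraries held 269683 and 260488 UMIs for sham 1 and sham 2, and 387955 and 483528 UMIs for overloaded 1 and overloaded 2. Levels are given as UMIs per 1000000 (CPM) after TMM scaling, on which 1 UMI was worth 4.35 and 4.53 CPM in the sham libraries and 2.60 and 2.03 CPM in the overloaded libraries.

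Sarcomeric myosin is the motor of the thick filament. Each molecule pairs heavy chains, which split ATP and pull on actin, with essential and regulatory light chains that stiffen and tune the lever arm. Muscle swaps isoforms as it matures: embryonic (Myh3) and perinatal (Myh8) heavy chains and the embryonic and atrial light chain Myl4 come first, and slow (Myh7), IIa (Myh2), IIx (Myh1) and IIb (Myh4) heavy chains mark adult fibres. MuSCs are not contractile and make little sarcomeric myosin until they differentiate, and renewed Myh3 is a familiar sign of newly formed muscle. The question the comparison addresses is which of these genes sorted MuSCs express in overloaded as against sham-operated muscle. Injured muscle was not among the samples.

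All heavy chain genes but Myh7 stand in 1 row on chromosome 11 (GRCm38, GENCODE M21), all on the plus strand within 230 kb. In the order of the row they are Myh3 (67078300 to 67102291), Myh2 (67171027 to 67197517), Myh1 (67200052 to 67224575), Myh4 (67238029 to 67260446) and Myh8 (67277124 to 67308634). The promoters of the first 4 genes of the row are printed to show neighbours that were counted often (Myh3, Myh4) beside neighbours that were almost not counted (Myh2, Myh1). Each runs from 250 bases before to 50 bases after the RefSeq start (GRCm38.p6). Capitals mark the E-box CANNTG, the site class of MyoD family factors, and the TATA box TATAAA, both searched on both strands, so that TTTATA is a TATA box read on the other strand.
Myh3, chr11:67078050-67078349, plus strand: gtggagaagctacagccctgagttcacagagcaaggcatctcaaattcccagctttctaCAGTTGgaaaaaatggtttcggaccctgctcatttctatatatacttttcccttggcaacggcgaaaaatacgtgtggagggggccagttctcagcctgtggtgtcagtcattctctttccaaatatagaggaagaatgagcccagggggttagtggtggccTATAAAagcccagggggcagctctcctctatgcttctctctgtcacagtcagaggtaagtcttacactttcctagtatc
Myh2, chr11:67170777-67171076, plus strand: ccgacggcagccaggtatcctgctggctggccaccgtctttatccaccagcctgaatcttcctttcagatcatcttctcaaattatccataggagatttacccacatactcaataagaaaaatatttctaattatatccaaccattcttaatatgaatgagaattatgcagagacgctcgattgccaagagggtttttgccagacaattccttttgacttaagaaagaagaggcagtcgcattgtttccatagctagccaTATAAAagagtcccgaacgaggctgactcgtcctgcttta
Myh1, chr11:67199852-67200151, plus strand: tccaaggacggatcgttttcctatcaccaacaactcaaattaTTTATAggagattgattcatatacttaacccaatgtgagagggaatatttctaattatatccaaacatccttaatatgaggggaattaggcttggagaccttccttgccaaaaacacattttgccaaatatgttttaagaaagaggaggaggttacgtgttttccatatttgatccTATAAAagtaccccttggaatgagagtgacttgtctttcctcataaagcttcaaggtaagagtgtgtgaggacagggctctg
Myh4, chr11:67237562-67237861, plus strand: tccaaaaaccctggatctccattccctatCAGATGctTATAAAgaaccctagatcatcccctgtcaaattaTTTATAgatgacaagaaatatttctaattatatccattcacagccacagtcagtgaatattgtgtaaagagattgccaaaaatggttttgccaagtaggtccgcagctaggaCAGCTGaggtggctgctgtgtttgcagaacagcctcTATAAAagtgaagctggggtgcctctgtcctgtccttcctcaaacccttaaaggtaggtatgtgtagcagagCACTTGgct
Myh3 held 1 E-box, beginning 191 bases before the start, and Myh4 held 3, of which those before the start lay at 221 and 67 bases. Myh1 and Myh2 held none in this window. A TATA box began 29 bases before the start in Myh3, 31 in Myh4 and 32 in Myh1. In Myh2 the match lay after the start, and in Myh8 and Myl1 it began 96 and 95 bases before it. Both of the latter were read on the other strand. Of the 10 genes, all of which matched an entry, 7 held an E-box in a promoter and 6 a TATA box, against 72.3% and 13.6% of 32851 RefSeq mouse promoters of this length. The palindromic MEF2 site, read as CTA, any 4 bases and TAG, was found in 0 of the 10 and in 3.69% of all promoters. A match is only a stretch of letters, and no binding was measured.

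Myosin UMIs were scarce in sham MuSCs and more numerous after overload. The 10 genes together gave 133 UMIs in sham 1, 58 in sham 2, 813 in overloaded 1 and 962 in overloaded 2, which is 0.0493%, 0.0223%, 0.210% and 0.199% of the libraries. Both overloaded libraries lay above both sham libraries, and by these shares the sham libraries differed from each other more than the overloaded ones did. Because each library is RNA from a tube of cells, more cells that contain a transcript and more transcript per cell cannot be told apart.

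**Figure D1:**
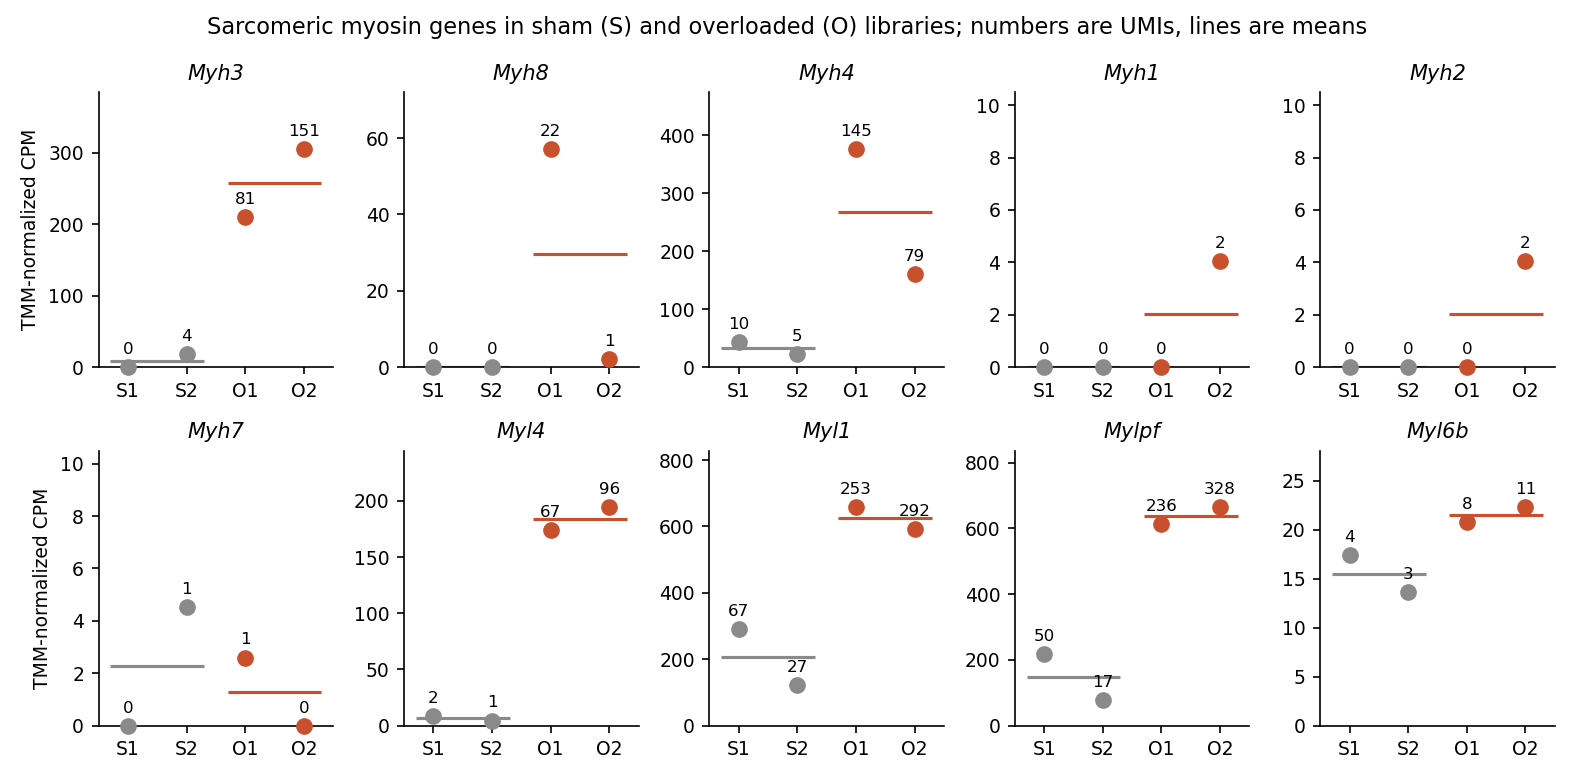
TMM-normalized CPM of each of the 10 myosin genes (y axis, a separate linear scale for each gene) in the 2 sham (grey) and 2 overloaded (orange) libraries; numbers are UMIs and horizontal lines are group means. Myh3, Myh4, Myl4, Myl1 and Mylpf are higher in both overloaded libraries than in either sham library, Myh8 is nearly all in overloaded 1, and Myh1, Myh2 and Myh7 stay at 0 to 2 UMIs.

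Only 5 of the 10 genes had enough UMIs to be tested across all genes: Myh3, Myh4, Myl1, Myl4 and Mylpf. All 5 were higher and 0 were lower after overload at an adjusted p under 0.1 (edgeR quasi-likelihood test, Benjamini-Hochberg over 7228 genes). Of all tested genes, 25.8% were called higher and 26.3% lower, so calls were common in this comparison. Only Myl1 and Mylpf passed the filter on low counts in all 4 libraries. Myh3, Myh4 and Myl4 were tested because of their overloaded counts, so the number of calls among the tested genes is a description and no support of its own. CPM values that did not overlap between groups, with the overloaded libraries higher, occurred in 37.5% of all tested genes.

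Among the developmental heavy chains, Myh3, the embryonic isoform, and the light chain Myl4 had the widest fitted differences of the tested members, within 1 SE of each other. Myh3 had 0 UMIs in sham 1 and 4 in sham 2, against 81 in overloaded 1 and 151 in overloaded 2. Both overloaded libraries were far above both sham libraries, and the sham level rests on 1 library. The mean level went from 9.06 ± 12.8 CPM to 258 ± 67.3 CPM (SD, n = 2 libraries a group). Myh3 rose by 4.82 on the log2 scale (SE 0.493, 95% confidence interval 3.78 to 5.86, adjusted p = 1.13e-06, edgeR quasi-likelihood, Benjamini-Hochberg adjusted). Without sham 1 the value was 3.79. Without sham 2 no sham UMI of Myh3 was left, and the fitted value of 9.59 then depends on the prior count and is no bound.

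Myh8, the perinatal heavy chain, was uneven. It had 0 UMIs in both sham libraries, 22 in overloaded 1 and 1 in overloaded 2. Nearly all of its UMIs thus came from 1 library, and it did not pass the filter for testing. Taken over the group, and against a floor of 3 UMIs for the sham group, its level was at least 3.93-fold higher after overload. When no filter was applied Myh8 was called higher (adjusted p = 0.000134, edgeR quasi-likelihood, Benjamini-Hochberg adjusted). That call, like those in the fits without sham 1, sham 2 or overloaded 2 in which it could be tested, rests on the 22 UMIs of overloaded 1, and Myh8 was not tested without that library.

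Of the adult heavy chains, the IIb isoform Myh4, the fast glycolytic motor of mouse limb muscle, accounted for nearly all UMIs. It had 10 UMIs in sham 1, 5 in sham 2, 145 in overloaded 1 and 79 in overloaded 2. The groups did not overlap, and overloaded 1 was the highest library, the reverse of the order for Myh3. The mean level was 33.1 ± 14.8 CPM in sham and 268 ± 153 CPM in overloaded libraries (SD, n = 2). Myh4 rose by 2.96 on the log2 scale (SE 0.465, 95% confidence interval 1.98 to 3.94, adjusted p = 8.81e-05, edgeR quasi-likelihood, Benjamini-Hochberg adjusted). Leaving out overloaded 1 lowered the value to 2.27.

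The other adult heavy chains were close to absent. Myh1 (IIx) and Myh2 (IIa) each had 2 UMIs, both in overloaded 2, and 0 in the other libraries. Myh7, the slow isoform shared with the heart ventricle, had 1 UMI in sham 2 and 1 in overloaded 1. No fold change is given for these genes, since a count of 0 in a library allows up to 3 UMIs, or 6.08 to 13.6 CPM depending on the library. Differences below that were not detectable at this depth. Counts along the row on chromosome 11 therefore did not follow position: the genes at 0 to 2 UMIs, Myh2 and Myh1, stand between Myh3 and Myh4.

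**Figure D2:**
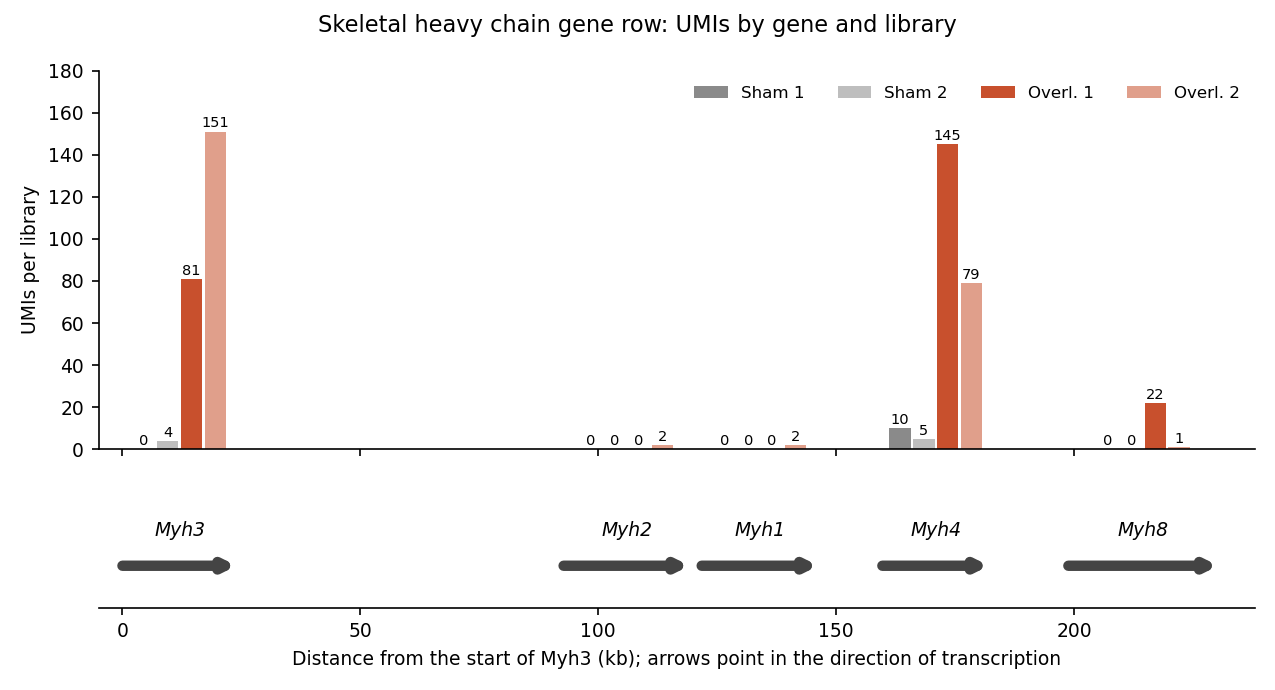
UMIs per library (y axis) of the 5 heavy chain genes of the chromosome 11 row, drawn at their distance in kb from the start of Myh3 (x axis), with gene extents as arrows; grey bars are sham and orange bars overloaded libraries. UMIs fell on Myh3 and Myh4 and, in overloaded 1, on Myh8, while Myh2 and Myh1, which lie in the middle of the row, had at most 2 UMIs each in a library.

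Near-identical sequence limits how finely these paralogs can be told apart. Of the 50-base windows in the last 500 bases of their coding transcripts, where 3′ tags fall, 16.1% in Myh1, 15.9% in Myh2, 12.6% in Myh4 and 0.665% in Myh8 were shared with another gene, and 0% in Myh3. For Myh7 the share was 22.2%, with Myh6 among the genes it shared windows with. A read in such a window has no unique place in the genome, and how such reads were treated was not given in the sources used here. Whether counting used strand was not given either. Antisense genes overlap the 3′ ends of Myh2 (9430073C21Rik, 2 UMIs, both in sham 1), Myh1 (Myhas, no row in the counts) and Myh7 (Mhrt, a long noncoding RNA).

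The isoform make-up of the heavy chain UMIs differed between libraries. Myh3 and Myh8 together were 0 of 10 heavy chain UMIs in sham 1 (0%, exact Clopper-Pearson 95% interval 0 to 30.8%) and 4 of 10 in sham 2 (40.0%, 12.2 to 73.8%). They were 103 of 249 in overloaded 1 (41.4%, 35.2 to 47.8%) and 152 of 235 in overloaded 2 (64.7%, 58.2 to 70.8%). The overloaded libraries were the higher pair, but sham 2 lay within the interval of overloaded 1. The mean developmental share was 20.0 ± 28.3% in sham and 53.0 ± 16.5% in overloaded libraries (SD, n = 2), with a two-sided exact permutation p of 0.3333, the smallest that 2 against 2 libraries can give. The interval of sham 1 lay below those of both overloaded libraries and that of sham 2 overlapped both, so the sham libraries do not give 1 answer. Intervals cover counting error only.

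The overloaded libraries also differed from each other. Myh3 made up 32.5% of heavy chain UMIs in overloaded 1 (95% interval 26.7 to 38.7%) and 64.3% in overloaded 2 (57.8 to 70.4%). Myh4 had the opposite order, 58.2% in overloaded 1 (51.8 to 64.4%) and 33.6% in overloaded 2 (27.6 to 40.0%). Myh8 made up 8.84% in overloaded 1 and 0.426% in overloaded 2. These intervals do not overlap, so the spread between libraries of 1 group was wider than counting error for all 3 isoforms.

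**Figure D3:**
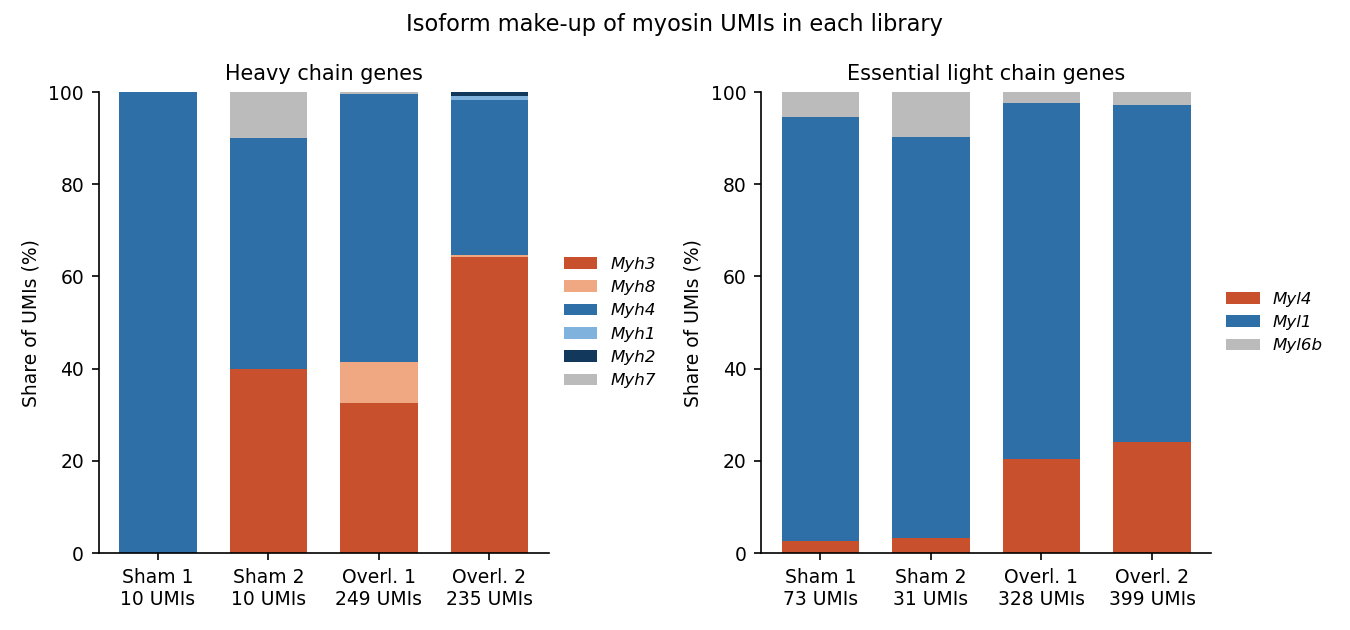
Share of UMIs in percent (y axis) that each heavy chain gene (left) and each essential light chain gene (right) took in each library, with the number of UMIs behind each bar. The developmental genes, in orange, took 41.4% and 64.7% of heavy chain UMIs and Myl4 took 20.4% and 24.1% of essential light chain UMIs in the overloaded libraries, and the sham heavy chain bars rest on 10 UMIs each.

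Light chains were counted more often than heavy chains in every library. Of the essential light chains, Myl4, found in embryonic muscle and in the atria, was close to absent from sham MuSCs. It had 2 UMIs in sham 1, 1 in sham 2, 67 in overloaded 1 and 96 in overloaded 2. Its groups were far apart and the overloaded libraries were close to each other, at 184 ± 14.3 CPM against 6.62 ± 2.95 CPM in sham (SD, n = 2). Myl4 rose by 4.72 on the log2 scale (SE 0.446, 95% confidence interval 3.78 to 5.66, adjusted p = 5.61e-07, edgeR quasi-likelihood, Benjamini-Hochberg adjusted). From the UMIs alone the ratio was 27.9, with an exact 95% interval from 9.37 to 137 set by the 3 sham UMIs. Leaving out each library in turn kept the log2 value between 4.32 and 5.22. The gene lies at chr11:104550663-104595753 on the plus strand, away from the heavy chain row, and 4 annotated antisense genes overlap it, none of them at its 3′ end.

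Myl1, which encodes the fast essential light chains, was already counted in sham MuSCs. It had 67 UMIs in sham 1, 27 in sham 2, 253 in overloaded 1 and 292 in overloaded 2. The groups did not overlap, and sham 1 was well above sham 2. The mean level rose from 207 ± 120 CPM to 625 ± 47.0 CPM (SD, n = 2), a log2 difference of 1.58 (SE 0.244, 95% confidence interval 1.07 to 2.09, adjusted p = 7.49e-05, edgeR quasi-likelihood, Benjamini-Hochberg adjusted). The value for Myl1 was 2.31 without sham 1 and 1.06 without sham 2. Myl1 lies at chr1:66924295-66945404 on the minus strand, and 22.7% of the windows at its 3′ end were shared with the pseudogene Mylf-ps.

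Mylpf, the fast regulatory light chain that is phosphorylated by myosin light chain kinase, followed the same order of groups. It had 50 UMIs in sham 1, 17 in sham 2, 236 in overloaded 1 and 328 in overloaded 2. As for Myl1, sham 1 was the higher sham library and no overloaded library overlapped with sham. The mean went from 147 ± 99.4 CPM to 639 ± 35.8 CPM (SD, n = 2), a log2 difference of 2.11 (SE 0.262, 95% confidence interval 1.55 to 2.66, adjusted p = 8.88e-06, edgeR quasi-likelihood, Benjamini-Hochberg adjusted). The value for Mylpf was 3.01 without sham 1 and 1.51 without sham 2. The gene lies at chr7:127208890-127214298 on the plus strand, and none of its 3′ windows were shared with another gene.

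Myl6b, an essential light chain of slow and nonmuscle type at chr10:128494157-128498685 on the minus strand, stayed low. It had 4 UMIs in sham 1, 3 in sham 2, 8 in overloaded 1 and 11 in overloaded 2. These are 15.5 ± 2.70 CPM and 21.5 ± 1.04 CPM (SD, n = 2), and the overloaded values lay just above the sham values. Myl6b did not pass the filter. Tested without the filter it had a log2 difference of 0.55 and was not called (adjusted p = 0.68, edgeR quasi-likelihood, Benjamini-Hochberg adjusted).

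Within the essential light chains the make-up shifted towards Myl4. Its share of Myl1, Myl4 and Myl6b UMIs was 2.74% in sham 1 (2 of 73, exact 95% interval 0.334 to 9.55%) and 3.23% in sham 2 (1 of 31, 0.0816 to 16.7%). It was 20.4% in overloaded 1 (67 of 328, 16.2 to 25.2%) and 24.1% in overloaded 2 (96 of 399, 19.9 to 28.6%). The shares of the 2 groups were apart by 19.3 percentage points, with SDs of 0.344 in sham and 2.57 in overloaded libraries, and the two-sided exact permutation p was 0.3333, the smallest the design allows. The interval of overloaded 1 overlapped that of sham 2, which rests on 1 UMI of Myl4, and did not overlap that of sham 1. The split between the regulatory and essential fast light chains moved less: Mylpf was 42.7% and 38.6% of Mylpf and Myl1 UMIs in sham 1 and sham 2, and 48.3% and 52.9% in overloaded 1 and overloaded 2.

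Ordered by level, sham MuSCs held Myl1 and Mylpf above Myh4, followed by Myl6b, Myh3 and Myl4. Neighbours in that order differed by less than the larger of their SDs for Myl1 and Mylpf, and for Myl6b, Myh3 and Myl4. After overload the order was Mylpf, Myl1, Myh4, Myh3, Myl4, Myh8 and Myl6b. Here Mylpf and Myl1 differed by less than the larger SD, as did Myh4 and Myh3, and Myh8 and Myl6b. Light chain UMIs per heavy chain UMI were 12.3 in sham 1, 4.80 in sham 2, 2.27 in overloaded 1 and 3.09 in overloaded 2. The ratio was lower in both overloaded libraries (two-sided exact permutation p = 0.3333, the smallest the design allows). Each sham ratio rests on 10 heavy chain UMIs, and the sham libraries differed widely from each other.

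RNA of the listed adult myofibre markers moved with the myosins. All 13 tested adult myofibre markers of 16 listed were called higher, against 25.8% of all tested genes. Their median log2 difference was 1.12, against 0.05 over all tested genes, and none of the 14 with a row was at 0 in both sham libraries. Their summed level was 2194 CPM in sham 1, 1277 in sham 2, 4043 in overloaded 1 and 3931 in overloaded 2, so sham 1 was above sham 2 here as it was for Myl1 and Mylpf. Acta1, the skeletal actin and most abundant of the list, rose by 0.83 on the log2 scale and Ckm, muscle creatine kinase, by 0.80 (adjusted p = 0.0033 and 0.0038, edgeR quasi-likelihood, Benjamini-Hochberg adjusted). The giant sarcomere protein gene Ttn had the largest difference of the list at 2.92 and Pvalb, the calcium buffer of fast fibres, the smallest at 0.68. Eno3, Myoz1, Tcap, Casq1 and Cox6a2 passed the filter only through their overloaded counts, so their calls are a description. The count and median of the list include them. Without sham 2, or with DESeq2, 8 of the 13 were called. Which cells this marker RNA came from, and its part in the myosin differences, were not tested.

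The myosins were also set against those markers. Myl1 and Mylpf together gave 23.2 and 15.6 UMIs per 100 myofibre marker UMIs in sham 1 and sham 2, and 31.4 and 31.9 in overloaded 1 and overloaded 2. Myh4 gave 1.98 and 1.77 in the sham libraries, and 9.32 and 4.07 in the overloaded libraries. Myh3 and Myl4 together gave 0.397 and 1.77 in the sham libraries, and 9.52 and 12.7 in the overloaded libraries. All 3 ratios were higher in both overloaded libraries than in either sham library. The difference of means was 12.3 UMIs per 100 marker UMIs for Myl1 and Mylpf, 4.82 for Myh4 and 10.04 for Myh3 and Myl4, from very different sham levels; the sham ratio of Myh3 and Myl4 rests on 2 and 5 UMIs. The ratios were not tested against each other. For each the two-sided exact permutation p was 0.3333, the smallest the design allows.

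**Figure D4:**
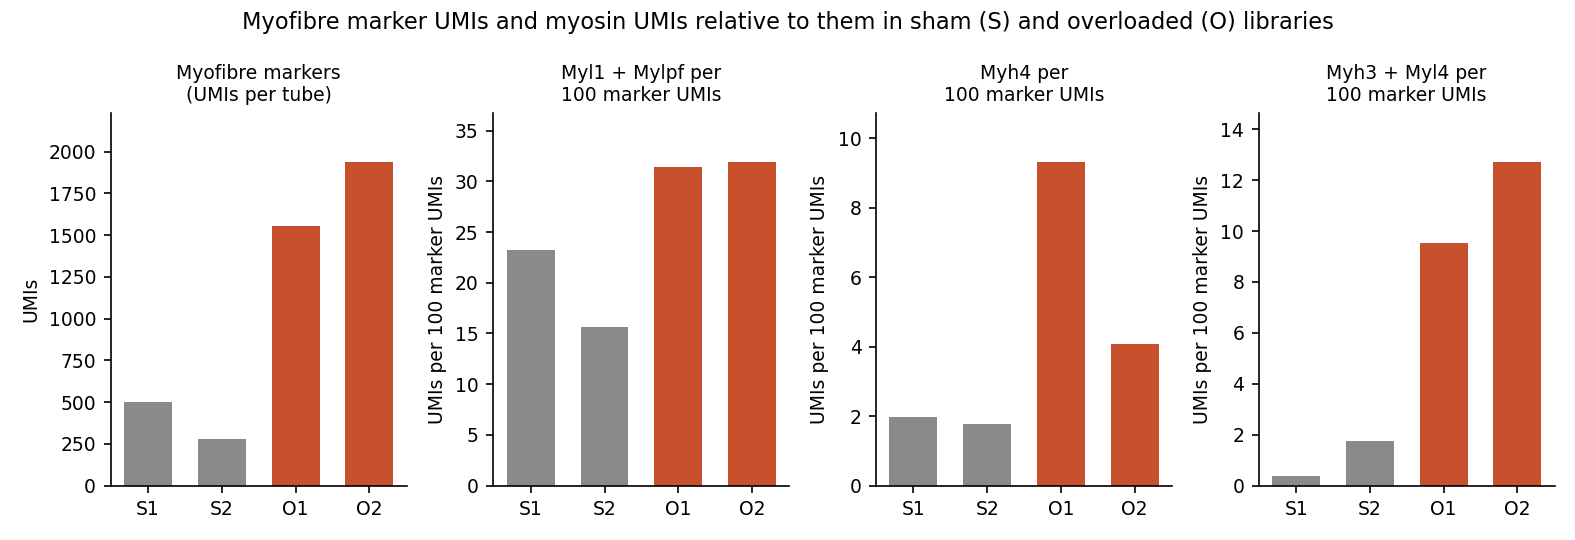
Summed UMIs of the adult myofibre markers per tube (left) and myosin UMIs per 100 of these marker UMIs (the other panels) in the sham (grey) and overloaded (orange) libraries, all on linear axes that start at 0. Each ratio is higher in both overloaded libraries; Myh3 and Myl4 together go from 0.397 and 1.77 to 9.52 and 12.7.

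The satellite cell identity of the sort and the other cell types it could hold were read from their markers. Of 12 satellite cell markers, all tested, 9 were called lower and 2 higher, against 26.3% and 25.8% of all tested genes. Among the lower ones, Musk passed the filter only through its sham counts, so its call is a description. Pax7, the transcription factor that defines MuSCs, had 118 and 107 UMIs in sham 1 and sham 2 and 108 and 137 in overloaded 1 and overloaded 2, a log2 difference of -0.84 (adjusted p = 0.00064, edgeR quasi-likelihood, Benjamini-Hochberg adjusted). Its UMIs per tube were alike and its CPM was lower in both larger, overloaded libraries. The most abundant marker, the heparan sulfate proteoglycan Sdc4, was lower by a log2 difference of -0.91, and the integrin subunit Itga7 had the largest rise, 0.67. The largest drop was in Calcr, the calcitonin receptor of quiescent MuSCs, at -2.60. These counts depended on the scaling: 4 were lower and 3 higher with UMIs per tube (median log2 difference 0.04, against -0.90) and 5 lower and 3 higher with loess offsets for abundance (median -0.15). Pax7 (0.12 and -0.25) and Sdc4 (0.03 and 0.17) were called under neither, and Calcr stayed lower under both, at -1.64 and -2.70.

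Markers of the other cell types that a sort could hold were summed for each library. The 12 leukocyte markers summed to 2 and 6 UMIs in sham 1 and sham 2 and to 86 and 219 in overloaded 1 and overloaded 2. Of them 9 were at 0 in both sham libraries, and the macrophage lysozyme Lyz2 was the most abundant, with 17 UMIs in overloaded 1 and 38 in overloaded 2. Lyz2 (log2 difference 7.38, against 0 sham UMIs and so no bound) and the antigen-presentation gene Cd74 (7.07, likewise) were the genes of the list that could be tested. The 8 endothelial markers summed to 10, 5, 98 and 90 UMIs in the same order, mostly from the fatty acid carrier Fabp4, which had 1, 1, 58 and 54 and was the 1 gene tested. Lyz2, Cd74 and Fabp4 were called higher, but passed the filter only through their overloaded counts, so those calls are a description. The 8 mural markers summed to 788 and 729 CPM in the sham libraries and to 1243 and 1405 CPM in the overloaded libraries. Most of this came from Acta2 (115, 109, 356 and 493 UMIs) and Tagln. Of 4 tested, 2 were called higher and 1 lower, from Rgs5 at 1.88 to Tagln at -0.61 on the log2 scale. The shares over all tested genes were 25.8% higher and 26.3% lower. Rgs5 passed the filter only through its overloaded counts, so its call is a description. Settings in which Tagln was not called lower included DESeq2, library sizes alone, no filter and thinning to the smallest library. With UMIs per tube it turned to 0.35 and was not called either. The mural marker Myh11, the smooth muscle heavy chain, had UMIs in overloaded 2 alone, where it had 3. The 10 fibro-adipogenic markers summed to 5428 and 5155 CPM in the sham libraries and 3739 and 3400 CPM in the overloaded libraries, led by Col3a1, with 1 called higher and 4 lower of 6 tested, from Ly6a at 4.79 (1, 0, 22 and 41 UMIs) to Dpt at -1.43, and their defining receptor Pdgfra had 2 UMIs in all. That direction turned with the scaling, to 4 higher and 1 lower with UMIs per tube (median log2 difference 0.50, against -0.45) and 3 higher and 1 lower with loess offsets for abundance (median 0.44). Ly6a passed the filter only through its overloaded counts, so its call is a description. The part of the other cell types in the myosin differences was not tested. The heart and slow-muscle light chains Myl2 and Myl3 had 1 UMI each, in sham libraries.

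Regulators of muscle differentiation gave a mixed picture beside the myosins. Of 10 listed genes 9 were tested, and 4 were called higher and 0 lower, against 25.8% and 26.3% of all tested genes. Myog, which drives differentiation, had 52 and 49 UMIs in sham 1 and sham 2 and 246 and 282 in overloaded 1 and overloaded 2. It was higher in both overloaded libraries, by 1.43 on the log2 scale (SE 0.180, adjusted p = 9.96e-06, edgeR quasi-likelihood, Benjamini-Hochberg adjusted). Mef2c, a partner of the MyoD family at muscle genes, had the largest difference of the list (2.47) and Mef2a the smallest called one (0.50). Mef2c passed the filter only through its overloaded counts, so its call is a description. Myod1 was not called, at 0.29 (95% confidence interval -0.06 to 0.64). Myf5, the most abundant of the list, was not called either, at 0.10 (-0.27 to 0.46). The count moved with the scaling, to 7 of 9 higher with library sizes alone or with loess offsets for abundance and 9 of 9 with UMIs per tube. Myod1 and Myf5 were called higher under each of these 3 scalings, at 0.95 and 1.11 with loess offsets. With DESeq2, 2 of 9 were called.

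Genes for proteins that fold, phosphorylate or turn over myosin did not share 1 direction. Of 21 listed genes, 18 had a row and 12 were tested, 3 higher and 4 lower, against 25.8% and 26.3% of all tested genes. Unc45b, the chaperone of muscle myosin heads, had 3 UMIs in each sham library, 17 in overloaded 1 and 25 in overloaded 2, and rose by 1.81 on the log2 scale (adjusted p = 0.0074, edgeR quasi-likelihood, Benjamini-Hochberg adjusted). Smyd1, a methyltransferase that works with this chaperone, had 1 UMI in each sham library, 14 in overloaded 1 and 29 in overloaded 2, and Trim63, the ubiquitin ligase MuRF1 that targets thick filament proteins, had 1, 0, 14 and 29. Their log2 differences were 3.35 and 4.24 (adjusted p = 0.00077 and 0.0005, edgeR quasi-likelihood, Benjamini-Hochberg adjusted). All 3 were higher in both overloaded libraries, but passed the filter only through these libraries, so their calls are a description. Without overloaded 2 none of the list was called higher and 5 were called lower; Smyd1 and Trim63 were then too low to test and Unc45b was not called (adjusted p = 0.158, edgeR quasi-likelihood, Benjamini-Hochberg adjusted).

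The 4 genes of the list called lower were Unc45a, Hsp90aa1, Mylk and Ppp1cb. Unc45a, the nonmuscle chaperone, fell by 1.18 on the log2 scale and Hsp90aa1, the stress-inducible Hsp90 that serves it, by 1.22 (adjusted p = 0.01 and 6.1e-05, edgeR quasi-likelihood, Benjamini-Hochberg adjusted). Mylk, the kinase of smooth and nonmuscle light chains, had the largest fall, by 1.41, and Ppp1cb, the phosphatase subunit and most abundant gene of the list, fell by 0.51. Mylk passed the filter only through its sham counts, so its call is a description. Mylk2, the light chain kinase of skeletal muscle, had 22 and 7 UMIs in sham 1 and sham 2 and 7 and 6 in overloaded 1 and overloaded 2. Its CPM was lower in both overloaded libraries (63.7 ± 45.3 against 15.2 ± 4.28, SD, n = 2), and it did not pass the filter. Tested without the filter, Mylk2 had a log2 difference of -2.01 (adjusted p = 0.00064, edgeR quasi-likelihood, Benjamini-Hochberg adjusted), and -1.11 without sham 1 (adjusted p = 0.41). The thick filament proteins Mybpc1 and Myom1 were not called, at -0.12 and -0.06. Mybpc2 did not pass the filter, with 3, 0, 6 and 22 UMIs in sham 1, sham 2, overloaded 1 and overloaded 2. Without the filter it was called higher, at 2.25 (adjusted p = 0.0127, edgeR quasi-likelihood, Benjamini-Hochberg adjusted). In that fit 4 genes of the list were called higher and 5 lower. The list's median was -0.21, and with UMIs per tube and no scaling 6 genes were higher and 0 lower, and Ppp1cb turned to 0.45. With DESeq2, 2 were called higher (Smyd1 and Trim63) and 1 lower (Hsp90aa1), and Unc45b, Unc45a, Mylk and Ppp1cb were not called (adjusted p = 0.16, 0.107, 0.122 and 0.116).

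**Figure D5:**
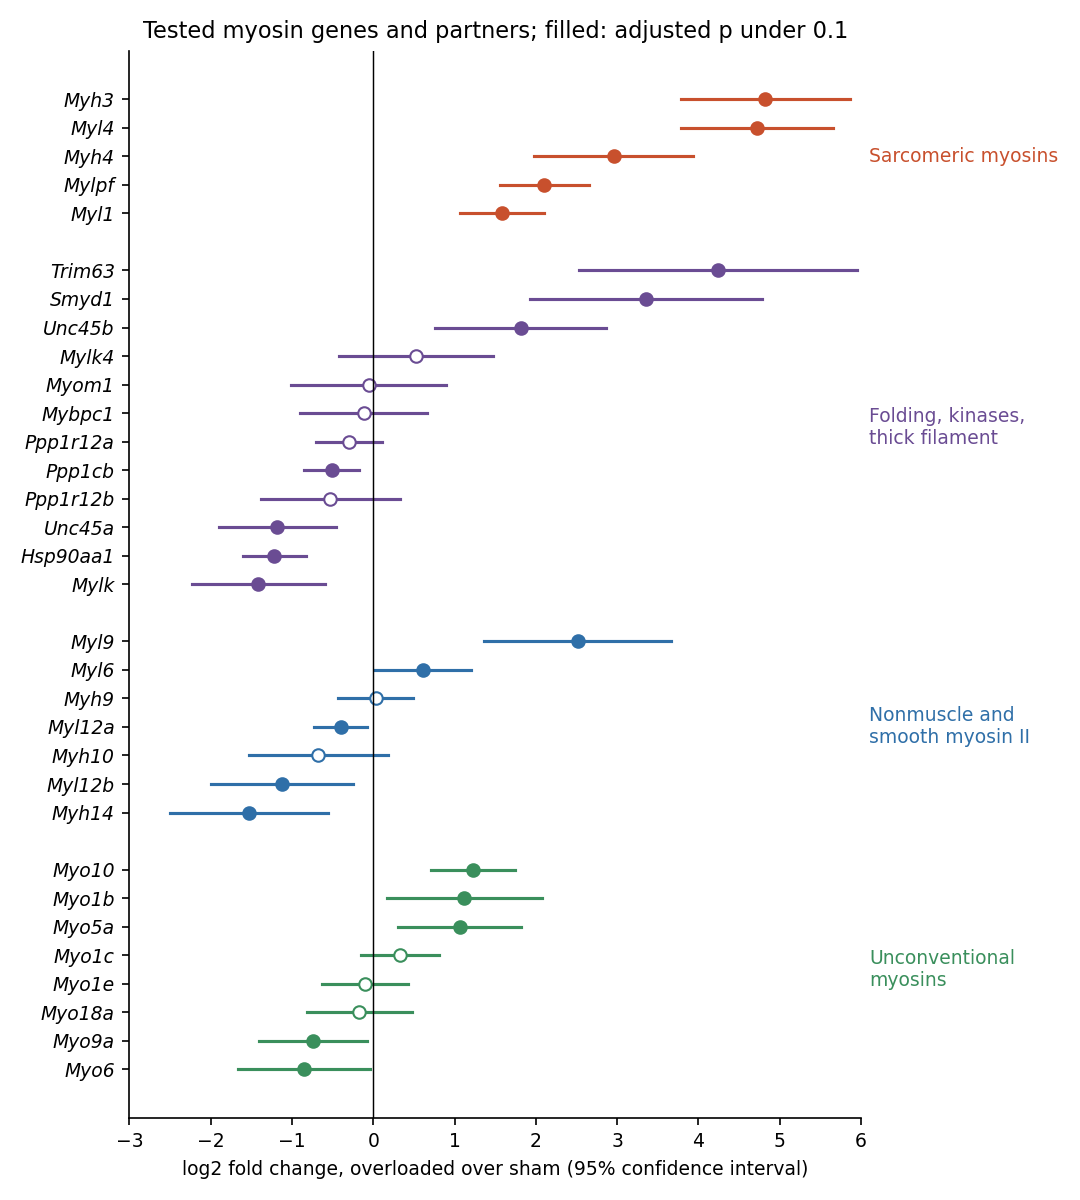
Log2 fold change of overloaded over sham (x axis, bars are 95% confidence intervals) for every tested gene of 4 groups: sarcomeric myosins, myosin folding and thick filament genes, nonmuscle and smooth muscle myosin II, and unconventional myosins. Filled points passed an adjusted p under 0.1; the 5 sarcomeric myosins lie between 1.58 and 4.82, while each other group has filled points on both sides of 0.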

How the data were processed

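The RNA was from sorted YFP-positive cells, 100 per tube. Per the study's methods and processing notes, the authors extracted 6-base UMIs (UMI-tools 1.0.0), aligned reads to GRCm38 (HISAT2 2.1.0), assigned them to genes (featureCounts 1.6.4) and removed duplicate UMIs. The deposited values are UMI counts per gene, not normalized. The annotation release, strand setting and handling of multiply mapped reads were not given in the sources used here. All 19353 gene identifiers matched GENCODE M21.

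Genes were filtered with filterByExpr (minimum count 10, minimum total 15), which left 7228, and scaled by TMM. CPM uses the UMIs of tested genes times the TMM factors (0.909, 0.908, 1.08 and 1.12 for sham 1, sham 2, overloaded 1 and overloaded 2). Sham and overloaded libraries were compared in 1 fit with edgeR 4.0.16 (R 4.3.3; glmQLFit and glmQLFTest), with Benjamini-Hochberg adjustment over all genes and a threshold of 0.1, that of the study, which used DESeq2 1.22.2. Shares of UMIs had exact Clopper-Pearson intervals and exact permutation tests (scipy 1.17.1). A count of 0 allows up to 3 UMIs. The fit was tested on simulated data. Same-numbered libraries were not paired by the labels, and deviations of libraries with the same number correlated at -0.0349. Replicates differed by more than sampling noise (chi-square per degree of freedom 1.36 in sham and 1.57 in overloaded libraries). The alternatives were 5 other scalings, DESeq2 1.42.0, limma-voom (limma 3.58.1), 2 other filters, a stricter threshold, a replicate block, thinning to the smallest library and leaving out each library.

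The members and all lists were chosen with earlier results of these data known. The text names every member; of each list it names the called genes with the highest and lowest signed log2 difference and the most abundant gene, and it names other list members after their values were seen. Of 10 members, 5 were too low to test and are given by counts.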

Additional observations from a re-analysis of the deposited data

How the results depend on the processing

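Myl1 and Mylpf, the members tested on counts in every library, were called higher in all 16 alternative settings, with a largest adjusted p of 0.0344 (Myl1, DESeq2). Myh3, Myh4 and Myl4 were also called higher in each, but they pass the filter through overloaded libraries, so their calls are a description; Myh3 without sham 2 has 0 sham UMIs, and the stricter threshold repeats the same fit. The scaling of libraries moved the rest of the table: 49.6% of the called genes were higher with TMM, 66.6% (2694 higher and 1351 lower) with library sizes alone and 93.1% (4481 and 331) with UMIs per tube, and the median log2 difference of all genes moved from 0.05 to 0.33 and 1.01. DESeq2 called 1811 genes in place of 3766, 762 higher and 1049 lower, and called the same 5 members; the cause was not tested. With the replicate number as a block the count was 3670 with 5 members higher, and no member's call changed; the numbers do not pair the libraries. After thinning to the smallest library the difference in the Myl4 share was 22.0 percentage points in place of 19.3. Leaving out 1 library at a time gave differences of 13.0 to 53.0 points for the developmental share of heavy chain UMIs and of 17.4 to 21.1 points for the Myl4 share. In these fits the lone library of a group is assumed to vary like the other group. Having 2 libraries a group, and sham libraries that differ from each other, limits every statement on isoform make-up.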

Other observations

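Myosins outside the sarcomere did not share 1 direction. Of 8 nonmuscle and smooth muscle myosin II genes, 7 were tested, 2 higher and 3 lower, against 25.8% and 26.3% of all tested genes. Myl9, the regulatory light chain of smooth muscle and nonmuscle myosin, had 2 UMIs in each sham library, 22 in overloaded 1 and 24 in overloaded 2, and rose by 2.51 on the log2 scale (SE 0.548, adjusted p = 0.0014, edgeR quasi-likelihood, Benjamini-Hochberg adjusted). Myl9 passed the filter only through its overloaded counts, so the call is a description. Summed mural cell markers were higher as well, and their part in this difference was not tested. Myl6, the essential light chain of these myosins, rose by 0.61 (adjusted p = 0.0883, edgeR quasi-likelihood, Benjamini-Hochberg adjusted). Settings in which Myl6 was not called included limma-voom, loess offsets for abundance, a filter of 10 counts in every library of a group and the stricter threshold. With the replicate number as a block only 1 gene of the group was called higher. Myl12a, the most abundant gene of the group with 216, 207, 286 and 337 UMIs in sham 1, sham 2, overloaded 1 and overloaded 2, fell by 0.40, and the heavy chain Myh14 fell by 1.53. Of the genes called lower, Myh14 and Myl12b passed the filter only through their sham counts, so their calls are a description. The direction of Myl12a turned with the scaling: it was called higher with UMIs per tube and with loess offsets for abundance, at 0.56 under both, and was not called with library sizes alone (-0.12). Myh9, the main nonmuscle heavy chain here, was not called, at 0.03 (95% confidence interval -0.44 to 0.49), but was called higher with loess offsets, at 0.77, and with UMIs per tube, at 0.96. The median was -0.40, but 0.56 with UMIs per tube and 0.52 with loess offsets for abundance, so no direction is given for the group. With DESeq2, 1 was called higher and 0 lower: Myl9 was called, and Myl6, Myl12a and Myh14 were not (adjusted p = 0.419, 0.174 and 0.163).

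Unconventional myosins move cargo or membranes. Of 25 listed, 17 had a row and 8 were tested, 3 higher and 2 lower, against 25.8% and 26.3% of all tested genes. Myo10, a motor of filopodia, had 18, 19, 78 and 91 UMIs in sham 1, sham 2, overloaded 1 and overloaded 2, and rose by 1.23 on the log2 scale (SE 0.245, adjusted p = 0.0007, edgeR quasi-likelihood, Benjamini-Hochberg adjusted). Myo5a had the smallest called rise, of 1.06. Myo6, which walks towards the minus end of actin, fell by 0.85, and Myo1c, the most abundant, was not called at 0.33. The lower calls were lost with DESeq2 (1 higher, Myo10, and 0 lower; Myo5a and Myo6 had adjusted p = 0.168 and 0.346) and also with upper-quartile factors, library sizes alone, no filter, an adjusted p under 0.05, thinning to the smallest library and without overloaded 1. With UMIs per tube and no scaling 6 were higher and 0 lower.

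Other developmental genes of the thin filament were among the background genes read beside the myosins. Actc1, the cardiac actin of embryonic muscle, had 29, 13, 230 and 357 UMIs in sham 1, sham 2, overloaded 1 and overloaded 2, a log2 difference of 2.83 (adjusted p = 3.6e-07, edgeR quasi-likelihood, Benjamini-Hochberg adjusted). Tnnt2, the cardiac troponin T of embryonic muscle, had 0 UMIs in both sham libraries, 213 in overloaded 1 and 308 in overloaded 2.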
